A study of Mus musculus with 2 samples.

Results

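Deep hepatocytes, defined here as barcodes with at least 10000 gene UMIs (unique molecules) and a clear hepatocyte signature, were split by the share of their UMIs that came from the mitochondrial genome. A barcode was kept when Alb, Apoa1, Apoa2, Ttr and Fgb together made up at least 1% of its UMIs and the class II antigen presentation genes H2-Aa, H2-Ab1, H2-Eb1 and Cd74 made up under 0.5%. Of 13151 barcodes, 3166 had at least 10000 UMIs and 2416 entered the comparison. The high side held 181 cells with 20% to under 50% mitochondrial UMIs, and the usual side held 2235 cells with under 20%. A further 69 barcodes with at least 50% were kept out. The cells were thus chosen by their measured depth, mitochondrial share and levels of these 9 genes, and those values are given below as descriptions without a test.

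The cells came from the livers of 3 female C57BL/6 (BL6) mice of 6 to 8 weeks, taken on day 6 after plasmid DNA had been injected hydrodynamically into the tail vein. Such a fast, large injection delivers DNA to some hepatocytes, and a Sleeping Beauty transposase (SB13) then inserts the transposon at scattered genomic sites. All mice received a transposon in which the CAGGS promoter drives NRAS and, through an IRES, the fluorescent protein mVenus. The NRAS was either the oncogenic G12V form or G12V/D38A, a form with a further change in the effector loop that served as the control. No uninjected mouse was part of the comparison. A hashtag antibody marked the cells of each mouse before they were sorted for mVenus, pooled and run on the 10x Genomics 3′ platform. As all cells were sorted and pooled, the mice share 1 gene expression library, and p-values below measure the spread between sums of 2 mice.

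The hashtags are the link between a cell and its mouse, and their 15-base sequences were:

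hashtag 1: acccaccagtaagac

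hashtag 2: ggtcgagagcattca

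hashtag 3: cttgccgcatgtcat

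The deposited table gives hashtag 1 to the G12V/D38A mouse and hashtags 2 and 3 to the G12V mice, whereas the methods of the study give hashtags 1 and 2 to G12V and hashtag 3 to G12V/D38A. The comparison of high with usual mitochondrial share was made inside each mouse and does not depend on this pairing, so mice are named by hashtag. No barcode appeared more than once in the gene table.

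Mitochondria carry a small genome of their own. It encodes 13 protein subunits of the respiratory chain and ATP synthase, while all other subunits, the mitochondrial ribosomal proteins and the import machinery are encoded in the nucleus, translated in the cytosol and imported. Messenger RNAs for cytosolic ribosomal proteins and secreted plasma proteins leave the nucleus, whereas the long noncoding RNAs Malat1, Neat1 and Xist are known to stay in it. Hepatocytes are rich in mitochondria, and the mitochondrial share of a droplet is widely used as a filter in single-cell data.

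With mice assigned by HTODemux, high cells were found in 2 of the 3 mice. The hashtag 1 mouse gave 183 usual and 38 high cells, so 17.2% of its deep hepatocytes were high (95% exact binomial interval 12.5 to 22.8). The hashtag 2 mouse gave 1084 usual and 81 high cells, or 6.95% (5.56 to 8.57). In the hashtag 3 mouse 0 of 23 cells were high, which allows a share of up to 13%. Among cells called negative for all hashtags, 890 were usual and 50 high, and among doublets of different hashtags 55 were usual and 12 high. Over all cells 7.49% were high (6.47 to 8.61). The shares per mouse depended on how hashtags were called. When a cell was instead given to a tag that held 80% of its hashtag UMIs, with 10 or more in all, 67 of 552 cells of hashtag 1 (12.1%, 9.53 to 15.2) and 36 of 402 of hashtag 2 (8.96%, 6.35 to 12.2) were high, with intervals that overlapped, and so was 1 of 10 cells of hashtag 3. The intervals cover counting error only, and no difference between mice is read from them.

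High cells were shallower, in part by construction, since a fixed minimum of total UMIs leaves fewer for the other genes where mitochondrial UMIs take more. The median cell held 39761 UMIs on the usual side and 17171 on the high side. Without the mitochondrial UMIs, the medians were 36129 (10th to 90th percentile 12783 to 62300) and 11659 (6700 to 24522). The median number of mitochondrial UMIs was 3535 on the usual side and 5452 on the high side, so the higher share went with more mitochondrial UMIs as well as fewer others. The same order was seen inside each mouse, with medians of 39079 and 11868 non-mitochondrial UMIs for hashtag 1, and 42043 and 11306 for hashtag 2. Fewer cell-derived molecules captured and less RNA per cell cannot be told apart in these counts.

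**Figure D1:**
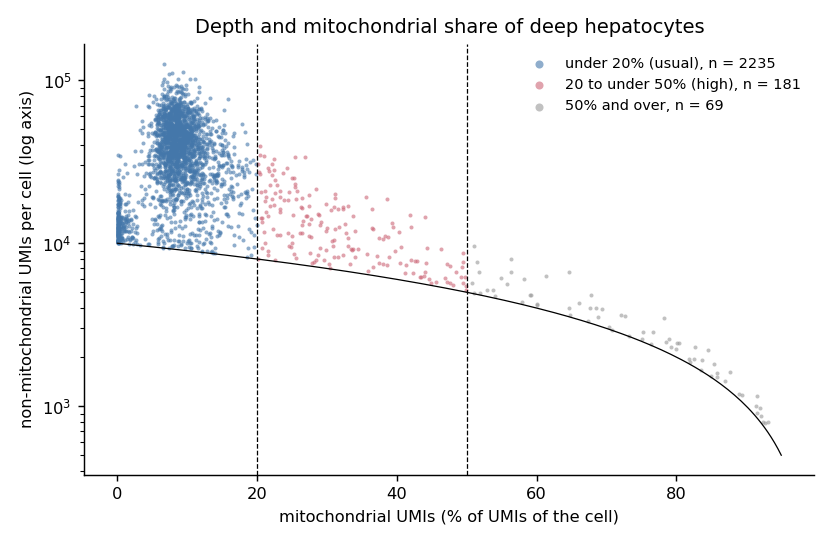
Each point is a deep hepatocyte, with its mitochondrial share of UMIs in percent on the x axis and its non-mitochondrial UMIs on the y axis (log scale), for 2235 usual, 181 high and 69 barcodes of 50% and over, where the curve is the minimum of 10000 UMIs and dashed lines are the limits of 20% and 50%. The high cells lie mostly below the usual ones, with a median of 11659 against 36129 non-mitochondrial UMIs.

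The hepatocyte label was checked on genes that the rule did not use. Levels below are in CPM, a gene's UMIs scaled to a fixed total of non-mitochondrial UMIs, over summed cells unless a cell is named. All 22 such hepatocyte genes were found on both sides, and their summed level was 81259 CPM on the usual and 93329 on the high side of the hashtag 1 mouse, and 93661 and 101139 for hashtag 2. As a description of what chose the cells, the 5 hepatocyte genes of the rule made up a median of 7.32% of the non-mitochondrial UMIs of a usual cell and 7.62% of a high cell. Pooled over all cells, Alb, which encodes serum albumin, was at 33232 CPM on the usual side and 42909 on the high side, and Apoa1, the main protein of high-density lipoprotein, was at 25078 and 18043. Markers of blood and immune cells were near 0. Their pooled sums on the usual and high sides were 5.45 and 6.02 CPM for 8 macrophage markers, 3.94 and 2.01 for 8 T and NK markers, 1.58 and 1.20 for 4 neutrophil markers, 0.947 and 1.61 for 5 erythroid markers, 1.09 and 2.01 for 6 B cell markers and 2.12 and 2.41 for 6 dendritic markers. The 7 stellate markers summed to 34.0 and 86.3 CPM (2 at 0 on the high side), with higher sums on the high side in both mice. For 8 endothelial markers (32.9 and 55.8 CPM pooled, none at 0 on the high side) the mice differed in direction, with 83.9 and 27.2 CPM in the hashtag 1 mouse and 17.2 and 20.1 in the hashtag 2 mouse. The same was seen for 6 cycling markers (33.7 and 75.4 CPM pooled), with 28.8 and 16.3, and 27.5 and 77.7 CPM. The 5 biliary markers, most of whose UMIs came from Spp1, summed to 7493 and 4983 CPM. The part of these cells in the results was not tested beyond leaving out the cells in which such markers passed 0.5% of UMIs, which left 1195 genes called.

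Within the mitochondrial transcripts, the make-up shifted slightly and in the same direction in both mice for 11 of the 13 genes. The share of mt-Co1, the catalytic subunit of complex IV, among all mitochondrial UMIs was 16.0% on the usual and 14.5% on the high side of the hashtag 1 mouse, and 16.5% and 15.1% for hashtag 2. For mt-Nd1, a complex I subunit, the shares were 6.05% and 5.10%, and 6.06% and 5.16%. Higher shares on the high side were found for mt-Atp6, a subunit of ATP synthase, at 21.3% and 22.8%, and 21.4% and 22.4%, and for mt-Nd4l at 0.75% and 1.04%, and 0.71% and 1.03%. The direction was mixed between mice for mt-Nd4 and mt-Nd6. Relative to non-mitochondrial UMIs, all 13 rose with the total that chose the cells, from 3.77-fold for mt-Nd1 to 6.04-fold for mt-Nd4l over the pooled cells.

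To ask which other genes differed, UMIs were summed per mouse and side. The sums held 7330959 and 552167 non-mitochondrial UMIs for hashtag 1 and 46824173 and 1145120 for hashtag 2, so the high side was the less precise of the sides in both mice. The fit by edgeR's quasi-likelihood test with the mouse as a block had 4 sums and 1 residual degree of freedom, which the tool supplements with the spread seen across genes. Of 10220 genes tested, 1521 (14.9%) passed an adjusted p of 0.05, of which 497 (4.86%) were higher and 1024 (10%) lower on the high side. For a single gene, an exact permutation test over 2 mice cannot go below 0.5. Of the called genes, 495 of the higher and 1003 of the lower had the same direction of CPM in both mice.

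The split between higher and lower depended on scaling. With TMM scaling, the trimmed mean of M values that edgeR uses, the median gene was at a log2 fold change (high over usual) of 0.019, and without it at 0.289. Without TMM, 1297 genes were called higher and 330 lower, so the higher calls made up 79.7% of the calls in place of 32.7%. Of the main calls, 497 of 497 higher and 1023 of 1024 lower genes kept their sign without TMM. Directions below are relative to the TMM centre. A list whose median lies just below 0 changes sign when TMM is left out, so such medians are given with both scalings.

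Long noncoding RNAs that stay in the nucleus were higher on the high side. Of 5 tested, 4 rose and 0 fell, beside 4.86% higher and 10% lower of all genes tested. The list median was 1.03 on the log2 scale beside 0.02 for all genes tested. Malat1 (ENSMUSG00000092341, GRCm38 chr19:5795690-5802672, minus strand) was at 14954 CPM on the usual and 33363 on the high side of the hashtag 1 mouse, and at 12529.9 and 34165 for hashtag 2. Both high sums lay above both usual sums, and Malat1 rose by 1.03 on the log2 scale (SE 0.08, adjusted p = 0.000691). Xist, which coats the inactive X chromosome of female cells (chrX:103460366-103483254, minus strand), was at 716 and 1831 CPM for hashtag 1 and 702 and 1972 for hashtag 2. Its change was 1.15 (SE 0.09, adjusted p = 0.000691).

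Neat1, the scaffold of nuclear paraspeckles (chr19:5824708-5845478, minus strand), rose from 1327 to 2660 CPM and from 1203 to 2820 CPM in the hashtag 1 and 2 mice, a log2 change of 0.85 (SE 0.09, adjusted p = 0.00107). Kcnq1ot1, an imprinted antisense transcript (chr7:143203458-143296549, minus strand), was at 44.5 and 112 CPM in the hashtag 1 mouse and at 53.0 and 189.5 CPM in the hashtag 2 mouse, a log2 change of 1.38 (SE 0.15, adjusted p = 0.00124). Meg3, the fifth, went opposite ways in the mice, from 117 to 72.4 CPM and from 137 to 515 CPM (log2 0.75, SE 0.43, adjusted p = 0.26). Xist and Kcnq1ot1 lie opposite other genes, and the sources used here do not say whether counting kept the strand, so reads of a partner gene cannot be told apart from theirs.

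In single cells Malat1 had a higher median on the high side, with a wide spread. The median cell had 9738 CPM on the usual side (10th to 90th percentile 94.6 to 27208) and 17499 on the high side (966 to 92049). Usual cells of 5 to 20% mitochondrial UMIs had a median of 11436 CPM (2547 to 28136). Beside these, the 10th percentile of the high side was lower and its 90th percentile higher. A part of the usual side had almost none: of 229 cells with under 2% mitochondrial UMIs, 110 (48.0%) held 0 Malat1 UMIs, beside 21 of 1934 (1.09%) at 5 to 20% and 3 of 181 (1.66%) on the high side. Counted against a usual side of 5 to 20%, an alternative added after this was seen, 1591 genes were called, 569 higher and 1022 lower.

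**Figure D2:**
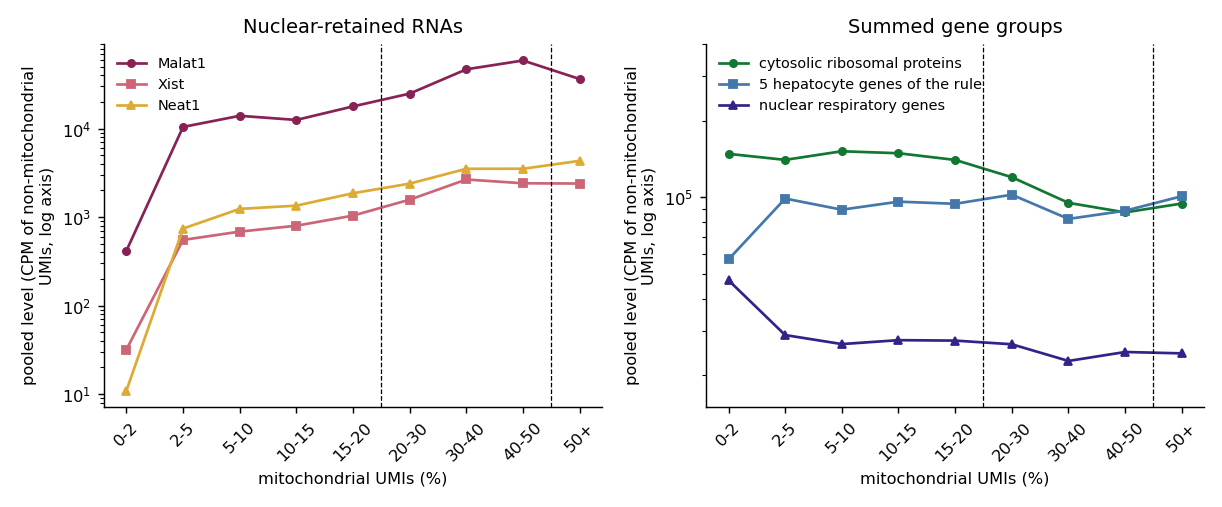
Pooled levels in bins of mitochondrial share (x axis, percent) in CPM on non-mitochondrial UMIs (y axes, log scale), with Malat1, Xist and Neat1 on the left, summed cytosolic ribosomal protein genes, hepatocyte genes of the rule and nuclear respiratory genes on the right, and dashed lines at 20% and 50%. Malat1 goes from 13947 at 5 to 10% to 58846 at 40 to 50%, while the ribosomal protein sum goes from 151666 to 87271.

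Messenger RNAs for cytosolic ribosomal proteins moved the other way. Of 81 tested, 78 fell and 0 rose, with log2 changes from -0.89 to -0.21 and a median of -0.63. Of all genes tested 10% were lower and 4.86% higher, and of genes under 1000 bases 41.7% were lower. The part of transcript length, described below, in this list was not tested. Their summed level was 153651 CPM on the usual and 118093 on the high side of the hashtag 1 mouse, and 146791 and 112204 for hashtag 2. Rpl13, a protein of the large subunit, fell from 4281 to 3445 CPM and from 4104 to 3208 CPM (log2 -0.60, SE 0.07, adjusted p = 0.00164). Rps24, of the small subunit, fell from 3512 to 2499 CPM and from 3321 to 2416 CPM (log2 -0.74, SE 0.08, adjusted p = 0.00107). Without TMM the median of the list was -0.36, with 59 lower and 0 higher. Ribosomal protein genes have many processed pseudogenes, so reads could have been split between copies.

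Per cell, ribosomal protein genes made up a median of 14.6% of non-mitochondrial UMIs on the usual side (10th to 90th percentile 7.99 to 21.9) and 8.6% on the high side (3.98 to 18.2). The medians were 15.1% and 11.96% in the hashtag 1 mouse and 14.0% and 6.78% in the hashtag 2 mouse. The ranges of the sides overlapped widely.

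Nuclear genes of the respiratory chain did not rise with the mitochondrial transcripts, whose rise was set by the rule. Of 76 tested, 44 fell and 0 rose, beside 10% lower and 4.86% higher of all genes tested. The list median was -0.42, and 75 had a fitted change below 0. By transcript length, described below, genes under 1000 bases had a median of -0.48, with 41.7% lower. From 1000 to 2000 bases the median was -0.39, with 24.3% lower. The part of transcript length in this list was not tested. By complex, 19 of 36 complex I genes, 7 of 14 genes of complexes II and III, 8 of 11 of complex IV and 10 of 15 of ATP synthase fell. Cox5a, a complex IV subunit, was at 837 CPM on the usual and 674 on the high side of the hashtag 1 mouse, and 747 and 628 for hashtag 2 (log2 -0.55, SE 0.09, adjusted p = 0.00523). For Atp5h, of the ATP synthase stalk, the levels were 818 and 623, and 761 and 653 CPM (log2 -0.57, SE 0.09, adjusted p = 0.00538). For Ndufb11, of complex I, they were 416 and 353, and 421 and 328 CPM (log2 -0.57, SE 0.10, adjusted p = 0.00735). In each of these genes both high sums lay below both usual sums.

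Cox4i1 (log2 -0.38, adjusted p = 0.0181) and Uqcrh of complex III (log2 -0.45, adjusted p = 0.0115) fell less. Ndufa6 did not pass, at 569 and 623, and 559.9 and 615 CPM, so its levels were higher on the high side while its fitted change was -0.14 (adjusted p = 0.331). Sdha, the flavoprotein of complex II, was the 1 gene of the 76 above 0, at 88.0 and 109, and 90.5 and 116 CPM (log2 0.07, SE 0.13, adjusted p = 0.763). The size of the fall depended on scaling: without TMM 64 of 76 were below 0 and 7 were called, all of them lower. Mitochondrial ribosomal proteins, also nuclear encoded, behaved alike, with 34 of 77 lower, 0 higher and a median of -0.48 (-0.21 without TMM). Of all genes tested, 10% were lower and 4.86% higher. Mrps14 fell from 224 to 165 CPM and from 209 to 162 CPM (log2 -0.67, SE 0.11, adjusted p = 0.00622), and Mrpl47 was the 1 member with a fitted change above 0.

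**Figure D3:**
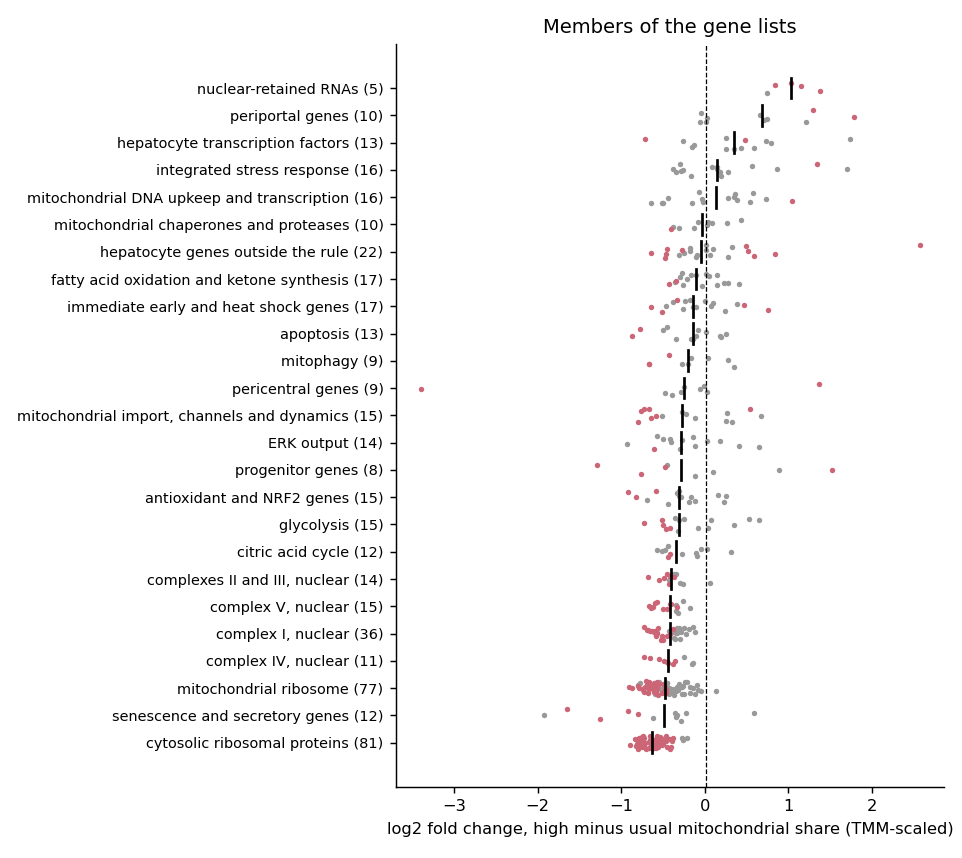
Fitted log2 fold change, high minus usual mitochondrial share with TMM scaling (x axis), of each tested gene of the lists (rows, with the number tested), where red points passed an adjusted p of 0.05, grey points did not and black bars are list medians. Nuclear-retained RNAs have a median of 1.03, cytosolic ribosomal proteins of -0.63 and mitochondrial ribosomal proteins of -0.48.

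Other mitochondrial groups moved less. Among 16 genes that maintain and express the mitochondrial genome, 1 rose and 0 fell, beside 4.86% higher and 10% lower of all genes tested. Their median was 0.13. The gene that rose was Lrpprc (chr17:84705247-84790789, minus strand), which binds and stabilises mitochondrial messenger RNAs. It was at 25.5 and 76.1 CPM on the usual and high sides of the hashtag 1 mouse and at 25.8 and 56.8 for hashtag 2 (log2 1.05, SE 0.19, adjusted p = 0.00808). Tfam, which packages mitochondrial DNA and starts its transcription, did not pass, at 36.6 and 30.8, and 34.5 and 25.3 CPM (log2 -0.64, adjusted p = 0.0698). Ppargc1a, a coactivator of mitochondrial biogenesis, was at a log2 change of -0.03 (adjusted p = 0.979).

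Of 15 genes of import, outer membrane channels and dynamics, 1 rose and 6 fell, beside 4.86% higher and 10% lower of all genes tested. Tomm70a, an import receptor, rose from 46.8 to 90.6 CPM and from 48.6 to 79.5 CPM (log2 0.54, adjusted p = 0.0475). Vdac2, a channel of the outer membrane, fell from 304 to 246 CPM and from 274 to 165 CPM (log2 -0.80, SE 0.13, adjusted p = 0.00504), and Vdac1 (-0.66), Vdac3 (-0.73), the fission adaptor Fis1 (-0.77) and the import receptor Tomm20 (-0.64) also fell. The list median was -0.27, and 0.00 without TMM.

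Genes tied to mitochondrial quality control and stress did not rise together, and lists with 1 or 2 called genes are near the 4.86% higher and 10% lower of all genes tested. Among 9 mitophagy genes 3 fell and 0 rose, including the mitophagy receptor Bnip3l, from 151 to 107 CPM and from 137 to 110.0 CPM (log2 -0.67, SE 0.13, adjusted p = 0.00979). Of 10 mitochondrial chaperones and proteases 1 fell, the co-chaperonin Hspe1 (log2 -0.40, adjusted p = 0.0205). The integrated stress response list had 1 of 16 higher, Sesn2, from 6.41 to 18.1 CPM and from 4.63 to 14.8 CPM (log2 1.34, SE 0.33, adjusted p = 0.0286), whereas its transcription factors Atf4 (0.15, adjusted p = 0.46) and Ddit3 (-0.28, adjusted p = 0.328) did not pass. Among 13 apoptosis genes 2 fell and 0 rose, including the pore former Bax, from 406 to 272 CPM and from 391 to 255 CPM (log2 -0.87, SE 0.10, adjusted p = 0.00148). Antioxidant genes had 3 of 15 lower and 0 higher, with Gpx4, which detoxifies lipid peroxides, at 1413 and 1032, and 1476 and 951 CPM (log2 -0.82, adjusted p = 0.00123), and Prdx5 at -0.92 (adjusted p = 0.00107).

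In metabolism, 2 of 17 fatty acid oxidation genes and 2 of 12 citric acid cycle genes fell and 0 rose, shares near the 10% lower and 4.86% higher of all genes tested. Of 15 glycolysis genes 5 fell and 0 rose. The medians of the fatty acid oxidation, citric acid cycle and glycolysis lists were -0.10, -0.34 and -0.31 with TMM, and 0.17, -0.07 and -0.04 without it. Gapdh was at 1035 and 864, and 892 and 575 CPM (log2 -0.72, SE 0.11, adjusted p = 0.00353).

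Hepatocyte genes outside the rule went both ways, with 5 of 22 higher and 5 lower, beside 4.86% higher and 10% lower of all genes tested. Their median was -0.04 (0.23 without TMM). Those that rose were Cyp3a11, described with the largest rises below, Apob, the large structural protein of very low-density lipoprotein, from 1434 to 2543 CPM and from 1589 to 2687 CPM (log2 0.52, adjusted p = 0.00389), the complement protein C3, from 2267 to 4062 CPM and from 2519 to 4651 CPM (log2 0.59, adjusted p = 0.0018), and Cps1, the first enzyme of the urea cycle (log2 0.84, adjusted p = 0.0197). The nuclear receptor Hnf4a, a master regulator of hepatocyte genes, rose from 113 to 176 CPM and from 120.4 to 219 CPM (log2 0.50, adjusted p = 0.0242). Lower were Rbp4, the plasma carrier of retinol, from 11056 to 8912 CPM and from 12378 to 9146 CPM (log2 -0.64, adjusted p = 0.00123), Hp (-0.45), Apoh (-0.47), Fgg (-0.47) and Ambp (-0.27). The level of Ambp in the hashtag 1 mouse was higher on the high side, at 2709.7 and 2818 CPM, so its direction rests on the scaling.

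Periportal genes had 2 of 10 higher and 0 lower, with a median of 0.69 (0.96 without TMM). The median was 0.05 matched in depth and 0.31 in the set of 5 to 20% matched in depth, both described below. Pck1, the rate-limiting enzyme of gluconeogenesis (chr2:173153048-173159273, plus strand), was at 19.6 and 38.03 CPM in the hashtag 1 mouse and at 18.1 and 107 in the hashtag 2 mouse (log2 1.79, SE 0.30, adjusted p = 0.00625). Cyp2f2, a cytochrome P450 typical of periportal cells, was at 49.4 and 88.7, and 42.1 and 168.5 CPM (log2 1.29, SE 0.23, adjusted p = 0.00819). Pericentral genes had 1 of 9 higher and 1 lower, near the 4.86% higher and 10% lower of all genes tested. Both calls rested on low counts or on 1 mouse: Cyp2c29 went from 11.3 to 9.06 CPM and from 11.3 to 50.6 CPM (log2 1.37, adjusted p = 0.0497), and Slc1a2 was near 0 (log2 -3.40).

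Among the genes with the largest called rises, several were liver enzymes with near-identical relatives whose reads may be split. Cyp3a11, a drug-metabolising P450 (chr5:145854426-145879964, minus strand), was at 26.2 and 38.03 CPM in the hashtag 1 mouse and at 22.2 and 307 in the hashtag 2 mouse (log2 2.57, SE 0.53, adjusted p = 0.0138), and without the hashtag 2 mouse its log2 value was 0.23. Ces2a (1.64) rose from 7.91 to 29.0 CPM and from 7.77 to 29.7 CPM. Ces3a (1.97) and Cyp2c50 (2.03) passed the test, but without the hashtag 2 mouse their log2 values were 0.05 and 0.26, on 5 and 6 high UMIs of the hashtag 1 mouse. Mup11 (2.1, adjusted p = 0.0247) passed as well. A single cell carried 76.9% of the Mup11 UMIs of the high side, and its pooled level of 41.7 CPM was 9.68 without that cell, beside 2.18 on the usual side. S100g, a calcium-binding protein (chrX:162961992-162964599, minus strand), had the largest called rise (log2 3.16, SE 0.35, adjusted p = 0.00123), at 2.59 and 81.5, and 12.4 and 94.3 CPM. Its 154 UMIs on the high side lay in 8 cells, with 39.6% in 1. By bins of mitochondrial share it was at 94.2 CPM at 20 to 30% and at 0 at 30 to 40%.

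More broadly carried rises included Slc22a30, a member of the organic anion transporter family found in 41.99% of high and 28.8% of usual cells, from 17.9 to 52.5 CPM and from 22.3 to 118 CPM (log2 1.86, SE 0.21, adjusted p = 0.00137). AY036118 (log2 1.96, SE 0.14, adjusted p = 0.000691) and Lars2, the mitochondrial leucyl-tRNA synthetase (log2 1.74, SE 0.18, adjusted p = 0.00107), are loci whose counts are uncertain, since both are known to draw reads from ribosomal RNA. Nlrp6, from 10.1 to 23.5 CPM and from 10.1 to 52.4 CPM (log2 1.78), and E4f1, from 6.55 to 21.7 CPM and from 6.19 to 25.3 CPM (log2 1.67), were low on both sides.

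The genes with the largest called falls included cytoskeletal and inflammatory genes. Vim, the intermediate filament vimentin (chr2:13573927-13582826, plus strand), was at 798 CPM on the usual and 116 on the high side of the hashtag 1 mouse and at 649 and 211 for hashtag 2 (log2 -2.36, SE 0.21, adjusted p = 0.00103). Anxa2, a membrane-binding annexin, was at 605 and 329.6, and 500.1 and 215 CPM (log2 -1.32, SE 0.11, adjusted p = 0.000911). Tmsb4x, which sequesters actin monomers, was at 746 and 273, and 474 and 251 CPM (log2 -1.44, SE 0.13, adjusted p = 0.00103), and Crip1 at 65.9 and 9.06, and 54.8 and 17.5 CPM (log2 -2.28, SE 0.27, adjusted p = 0.00148). In all 4 both high sums lay below both usual sums.

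Chemokines fell in the fit but rested on few cells. Cxcl9, an interferon-induced chemokine, was at 279 and 63.4, and 68.2 and 15.7 CPM (log2 -2.40, SE 0.16, adjusted p = 0.000691). The usual level of the hashtag 2 mouse was close to the high level of the hashtag 1 mouse, and 31.3% of the UMIs of the high side were in 1 cell. Cxcl10 was at 119 and 9.06, and 43.7 and 17.5 CPM (log2 -2.47, SE 0.37, adjusted p = 0.00374). Pooled over all cells its levels were 73.8 and 53.0 CPM, with 50.8% of the high UMIs in 1 cell. Cxcl3 (-1.75), Cavin3 (-2.08), Plac8 (-1.41), Leng1 (-1.34) and Wincr1 (-1.46) also fell, with 38.8% of the high Cxcl3 UMIs in 1 cell.

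**Figure D4:**
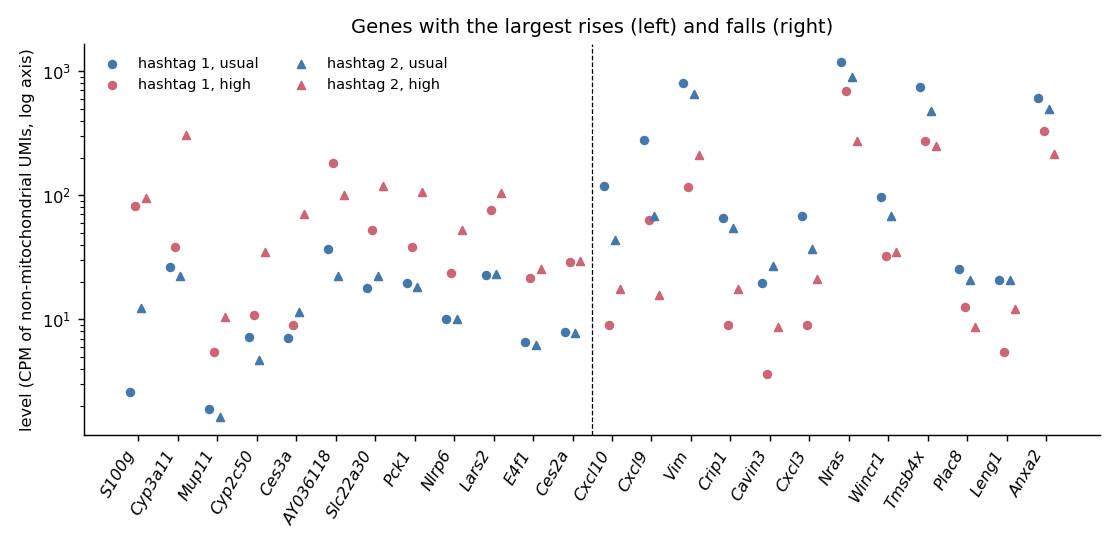
Levels of the 12 genes with the largest called rises (left) and the 12 with the largest called falls (right), in CPM on non-mitochondrial UMIs (y axis, log scale), for the usual (blue) and high (red) sides of the hashtag 1 (circles) and hashtag 2 (triangles) mice. Vim lies at 798 and 649 on the usual and at 116 and 211 on the high side, and S100g at 2.59 and 12.4 and at 81.5 and 94.3.

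The medians of lists linked to RAS signalling and the senescent state lay below 0 with all cells and above 0 at matched depth. Of 14 genes of ERK output 0 rose and 1 fell, near the share of 10% lower and 4.86% higher over all genes tested. The gene that fell was the cyclin Ccnd1, at 229 and 139, and 199 and 191 CPM (log2 -0.60, SE 0.15, adjusted p = 0.031), and Dusp6, a phosphatase induced by ERK, was at 0.03 (adjusted p = 0.916). The list median was -0.28, and -0.01 without TMM. Over the 8 members still tested it was 0.64 matched in depth and 0.15 in the set of 5 to 20% matched in depth. Of those members 0% and 12.5% had a change below 0, and 0 were called in either set. Senescence genes had 4 of 12 lower and 0 higher, with a median of -0.49 that became -0.22 without TMM and, over the 10 and 9 members still tested, 0.57 matched in depth and 0.37 in the set of 5 to 20% matched in depth. Matched in both depth and Nras, 3 of 9 senescence genes and 1 of 8 ERK output genes were higher and 0 lower. Of all 5968 genes tested in that set, 184 were higher and 164 lower. The 4 that fell with all cells were Cdkn2b, a cell cycle inhibitor, at 218 and 123, and 185 and 129 CPM (log2 -0.92, SE 0.13, adjusted p = 0.00268), Hmga1 (-1.65), Plaur (-0.79) and the chemokine Ccl2 (-1.26, adjusted p = 0.00632), of which 35% of the high UMIs lay in 1 cell. Cdkn1a did not pass (log2 -0.62, adjusted p = 0.103).

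Of 13 hepatocyte transcription factors 1 rose, Prox1 (log2 0.48), and 1 fell, Foxa3 (-0.72), near the 4.86% higher and 10% lower of all genes tested. The list median was 0.36, and 0.02 in the set of 5 to 20% matched in depth. Of the markers of other cells that passed the filter on low counts, 0 of 4 endothelial (median -0.88) and 0 of 4 cycling markers (median 0.54) were called, and the 1 stellate marker tested, Reln, rose from 23.6 to 63.4 CPM and from 38.6 to 73.4 CPM (log2 0.84, adjusted p = 0.0191). No macrophage, B, T and NK, neutrophil or erythroid marker reached the filter.

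Among 8 progenitor genes 1 rose and 3 fell, beside 4.86% higher and 10% lower of all genes tested. H19, an imprinted fetal transcript, was at 70.5 and 335, and 70.9 and 185 CPM (log2 1.52, SE 0.18, adjusted p = 0.00161), with 32% of the high UMIs in 1 cell. Spp1, encoding osteopontin, was at 9960.1 and 7295, and 6761 and 4642 CPM (log2 -0.77, SE 0.07, adjusted p = 0.00103), and Sox9 (-0.47) and Dlk1 (-1.29) fell. Heat shock genes Hspa1b, at 193 and 426, and 120.1 and 226 CPM (log2 0.75, SE 0.11, adjusted p = 0.0035), and Hspa1a (0.47) rose, while Junb (-0.51), Jund (-0.33) and Ier3 (-0.64) of the same list of 17 fell.

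Nras was lower on the high side in summed counts. Its row was at 1190.4 CPM on the usual and 690.0 on the high side of the hashtag 1 mouse, and at 906 and 276 for hashtag 2. The fitted change was -1.52 (SE 0.18, adjusted p = 0.00151). Pooled over all cells the levels were 917 CPM (95% exact Poisson interval 911 to 924) and 414 CPM (389 to 440). Endogenous and construct-derived UMIs cannot be told apart on this row.

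The difference in Nras lay mostly in the cells with high counts. The median cell was at 92.5 CPM on both sides over all hashtag calls, at 145 and 77.9 CPM in the hashtag 1 mouse and at 95.6 and 85.8 CPM in the hashtag 2 mouse. These medians are near the counting floor, as the median cell over all calls held 3 Nras UMIs on the usual and 1 on the high side. Cells with at least 1000 CPM made up 336 of 2235 on the usual side (15.03%, 13.6 to 16.6) and 13 of 181 on the high side (7.18%, 3.88 to 11.97). The shares were 24.6% and 10.5% in the hashtag 1 mouse, and 15.6% and 6.17% in the hashtag 2 mouse. The 10 cells with most Nras held 13.7% of the Nras UMIs of the usual side and 66.3% of those of the high side, where 1 cell carried 174 UMIs. Turned around, 3.72% (2.00 to 6.29) of cells with at least 1000 CPM of Nras were high, beside 8.08% under 50 CPM, 8.22% at 50 to 200 and 8.04% at 200 to 1000.

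At equal depth the share of cells with an Nras UMI did not separate the sides. It was 82.6% and 69.1% as measured, and 50.02% and 50.87% when each cell was thinned to 6000 non-mitochondrial UMIs, which left out 8 high cells. Barcodes with class II genes, which should lack the construct, had a share of 41.9% at a median of 9652 UMIs and 31.1% after thinning. In the comparison with cells matched in depth, described below, the Nras change was -0.32 (adjusted p = 0.466), and over the 17 and 54 cells a side of the 2 mice with the usual side limited to 5 to 20% and matched in depth it was -1.82, which passed. Pooled over all hashtag calls, the levels of the usual and high sides were 273 and 436 CPM matched in depth and 496 and 436 CPM at 5 to 20% matched in depth, so the fall seen in the 2 mice was not present in the former and small in the latter.

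The mvenus row did not differ past the threshold. It was at 108 and 150 CPM in the hashtag 1 mouse and at 69.3 and 27.9 in the hashtag 2 mouse, opposite directions, with a fitted change of -0.56 (SE 0.32, adjusted p = 0.264). The pooled levels were 72.9 CPM (71.0 to 74.7) and 69.0 (59.1 to 80.1), and the 10 cells with most mvenus held 11.9% of the usual and 70.3% of the high UMIs. The share of cells with an mvenus UMI was 36.0% and 24.9% as measured and 17.8% and 14.5% after thinning, beside 1.25% of thinned class II barcodes.

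**Figure D5:**
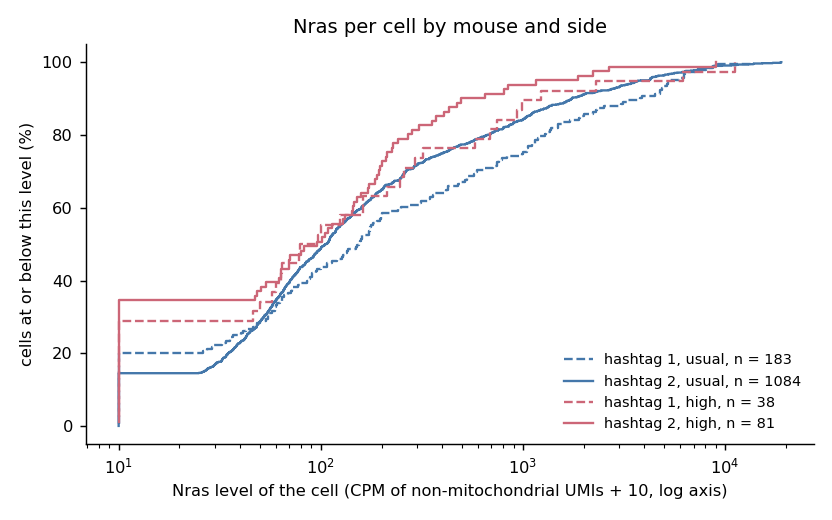
Cumulative percent of cells (y axis) at or below a given Nras level (x axis, CPM on non-mitochondrial UMIs plus 10, log scale) on the usual (blue) and high (red) sides of the hashtag 1 (dashed) and hashtag 2 (solid) mice. The curves of the high sides reach the top earlier, with 10.5% and 6.17% of cells at 1000 CPM or above beside 24.6% and 15.6% on the usual sides.

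In levels pooled over all hashtag calls, Malat1, Xist and the ribosomal protein genes were ordered along the mitochondrial share from 10 to 40%. Malat1 was at 13947 CPM in cells of 5 to 10%, 12524 at 10 to 15%, 17816 at 15 to 20%, 24851 at 20 to 30%, 46772 at 30 to 40% and 58846 at 40 to 50%. The ribosomal protein sum went from 151666 over 148970, 140238, 119967 and 95132 to 87271 CPM in the same bins. Hepatocyte genes of the rule had no such order, with 89428, 96161, 94332, 102411, 82281 and 88593 CPM, and neither had Nras, with 1047, 667, 578, 139, 1088 and 592 CPM. The median non-mitochondrial depth fell in the same bins from 41394 over 35804, 26075, 15602 and 10815 to 6700 UMIs. From 30 to 40% to 40 to 50%, the latter with 11 and 19 cells, the mice went opposite ways. Malat1 went from 57181 to 32846 CPM in the hashtag 1 mouse and from 38260 to 86938 in the hashtag 2 mouse. The ribosomal protein sum went from 79666 to 115120 and from 97353 to 50946 CPM. Just inside the limit, 25 cells of 20 to 22% had 16878 CPM of Malat1 and 129036 of ribosomal protein genes, and just outside it, 30 cells of 18 to 20% had 19370.3 and 168159.

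Since depth moved with the mitochondrial share, sides were also matched in depth. Equal numbers of usual and high cells were drawn from each class of depth per mouse, so high cells without a partner were left out. Of 38 high cells of the hashtag 1 mouse 24 stayed, and of 81 of the hashtag 2 mouse 54. The median depth of the high cells thereby went from 11868 to 16941 and from 11306 to 16406 non-mitochondrial UMIs. In these sums, 24 of 6415 genes were called (12 higher and 12 lower), and 1053 had an unadjusted p under 0.05. Of the genes with the largest called rises and falls, Nras apart, 21 were tested in these sums. Of them 2 kept direction and call, 17 lost the call and 2 reversed. Pck1 was at -0.13, Cyp3a11 at 1.22 (adjusted p = 0.131) and Slc22a30 at 1.43 (adjusted p = 0.0942), while S100g (3.51) passed. With the usual side limited to 5 to 20% and matched in depth, each side held 17 cells of the hashtag 1 mouse and 54 of the hashtag 2 mouse, with median depths of 18431 and 18743, and 15728 and 16406 non-mitochondrial UMIs. Then 35 of 6082 genes were called, 18 higher and 17 lower, and 29 of the 35 had been called in the same direction with all cells, which share cells with the matched set.

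Malat1 (0.91), Xist (0.79), Kcnq1ot1 (1.11), Pck1 (1.45), Cyp2f2 (1.76), Cyp3a11 (1.57), Hspa1b, Slc22a30 and S100g remained higher on the log2 scale in the sums of this matched set. Nras (-1.82), Vim (-1.14), Tmsb4x (-1.48), Cxcl9 (-3.08), the acute phase protein Lcn2 (-1.46) and Actb (-0.77) remained lower. A separate draw over all hashtag calls, with 136 cells a side, gave pooled levels with the same direction for 33 of the 35. They were far apart for Malat1 (13792 usual and 32201 high CPM), Tmsb4x (606 and 293), Vim (549.9 and 203) and Actb (1917 and 1199.8). The pooled levels were nearly equal for Cxcl9 (47.2 and 46.4), Lcn2 (129 and 123) and Nras (496 and 436), although the hashtag 1 mouse had 378 and 17.1 CPM of Cxcl9 and 1101 and 197 CPM of Nras. For Hspa1b, at 342 and 307 CPM, the pooled direction was the opposite of the fitted one. No nuclear respiratory or cytosolic ribosomal protein gene passed there, while 71 of 76 nuclear respiratory genes stayed below 0 and the median of the ribosomal protein list was -0.27 in place of -0.63. Some smaller lists changed the sign of their median in this set, from -0.14 to 0.15 for immediate early and heat shock genes, from -0.28 to 0.07 for progenitor genes and from 0.13 to -0.18 for genes that maintain and express the mitochondrial genome. The part of depth in the comparison of all cells was not tested beyond this.

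By direction, called genes were of different transcript length, which is given as a description. The longest annotated transcript had a median of 4918 bases for genes called higher, 1671 for those called lower and 3324 for all genes tested. Under 1000 bases, 10 of 508 genes (1.97%) were higher and 212 (41.7%) lower, with a median log2 change of -0.48. From 6000 bases, 168 of 1466 (11.46%) were higher and 22 (1.5%) lower, with a median of 0.40. The classes between went in order, with medians of -0.39, -0.11, 0.09 and 0.26. Noncoding genes made up 19 of the 497 higher (3.83%), 5 of the 1024 lower (0.488%) and 227 of all genes tested (2.22%). Ribosomal protein and respiratory subunit genes are short, so the list values above and the length classes share members.

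Pooled over all hashtag calls, the whole high side against the whole usual side, 709 of 7685 genes (9.23%) were at least 2-fold higher and 22 (0.286%) at least 2-fold lower, with no scaling other than CPM and no test. These pooled sums rest on 2491768 and 83452809 non-mitochondrial UMIs.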

How the data were processed

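The gene expression reads were mapped by the authors with Cell Ranger to mm10, and raw UMI counts per gene and barcode were deposited, and they counted hashtag UMIs in a second library, also deposited as raw counts. The submitters' processing notes name Cell Ranger 2.1.1 and the matrix header names software version 3.0.2. Hashtag rows of the gene matrix were left out of all sums. A table of 31054 gene rows and 13151 barcodes was used, with gene positions and transcript lengths from GENCODE for GRCm38.

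Barcodes were assigned to mice with HTODemux (Seurat 5.3.0, positive quantile 0.99), which gave 5382 singlets, 253 doublets of tags and 7504 negatives. Doublets were removed by hashtag only, and only from the sums per mouse. A mouse entered the fit with at least 10 cells on each side, which left 2 of 3 mice.

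UMIs were summed per mouse and side and tested with edgeR 4.0.16 (R 4.3.3; quasi-likelihood F-test, TMM, filterByExpr, mouse as a block, Benjamini-Hochberg adjusted p under 0.05). Both sides of a pair come from the same animal, so the block was part of the design. The 13 mitochondrial rows and the 9 genes of the rule were left out. On simulated counts over 10220 genes, 73 of 100 genes changed 2-fold and 100 of 100 changed 4-fold were recovered, with 4 false calls. The simulated counts had a common dispersion, equal numbers of rises and falls and no UMIs gathered in single cells. They therefore do not give the rate of false calls in the data. DESeq2 1.42.0 was an alternative.

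Named genes were the 12 largest rises and 12 largest falls among called genes of at least 20 CPM that moved the same way in both mice, without predicted genes. The cells, lists and tests were chosen with earlier results of these data known. Comparisons with a usual side of 5 to 20% and those with it matched in depth were added after the data were seen. Transcripts that stay in the nucleus, ribosomal, respiratory and other lists are given in the results. Exact Poisson intervals on counts and exact binomial (Clopper-Pearson) intervals on shares are at 95% and cover counting error only, as does the limit that 3 counts set where 0 were found. CPM is on non-mitochondrial UMIs.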

Additional observations from a re-analysis of the deposited data

Results flagged for a closer look

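The change of mvenus pointed in opposite directions in the 2 mice of the fit. On the log2 scale the high side was 0.18 above the usual side in the hashtag 1 mouse and was at -1.65 in the hashtag 2 mouse. The difference between the mice was not tested, since each gives 1 value.

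The gene expression matrix also held rows for hashtags that the study did not use. Tag 4 had 3096 UMIs in 404 barcodes, tag 5 had 133 UMIs in 85 barcodes and tag 6 had 9 UMIs in 7 barcodes. They entered no comparison.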

How the results depend on the processing

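In place of 1521 genes, DESeq2 called 571, and the cause was not tested. Matched sets hold fewer cells: 24 genes were called matched in depth, 348 matched in depth and Nras, and 35 with the usual side of 5 to 20% matched in depth. The other settings with TMM or another scaling gave counts within 1.5 times of the main one, apart from the fit in the next paragraph. Without TMM 1297 genes were higher and 330 lower, and with all UMIs as the scale 401 and 1559.

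Without the replicate block, which ignores the pairing of sides within a mouse, 803 genes were called and Nras was at -1.42 (adjusted p = 0.0570). Leaving out a mouse leaves a single pair and no test, so no count was possible. As single values, Nras then ranged from -2.09 to -1.08, mvenus from -1.65 to 0.18 and the change in mt-Co1 share from -1.55 to -1.44 percentage points.

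Nras, -1.52 in the main fit, was -0.32 (adjusted p = 0.466) matched in depth and -0.025 (adjusted p = 0.970) matched in depth and Nras, which uses Nras itself, and -1.15 as a pooled sum and -0.66 as a mean over cells. The fold of mvenus passed at a 15% limit (-0.35) and without a filter on low counts (-0.62) and changed sign at a 25% limit (0.0062), at 30 to 50% (0.39), matched in Nras (0.21), in depth (0.36) or in both (0.48) and as a mean over cells (0.40). It was -0.078 as a pooled sum. The cause was not tested.

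The number of genes at least 2-fold apart in pooled levels, 731, was 129 at a 15% limit, 1274 at 25%, 1792 at 30 to 50%, 1215 matched in depth and 263 on all UMIs. The mt-Co1 change of -1.54 percentage points was -1.20, -1.67 and -1.92 at these limits, -1.35 with 10000 non-mitochondrial UMIs, -1.66 without tag doublets, -2.58 matched in depth and -2.49 with the usual side of 5 to 20% matched in depth. Of the tested values of single named genes, 317 kept direction and call, 44 lost the call and 5 reversed. A further 9 had no adjusted p and kept their direction, and of the values from a single mouse, which carry no test, 15 moved by more than the spread between the mice. The reversals were S100g at 30 to 50% (-9.93), Pck1 (-0.13) and Cxcl10 (0.32) matched in depth, Cxcl3 matched in Nras (1.02) and Wincr1 matched in both (1.06). Depth limits the high side, whose sums held 552167 and 1145120 non-mitochondrial UMIs.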

Other observations

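Barcodes with under 2% mitochondrial UMIs formed an edge of the usual side. Of these 229, 168 were negative for all hashtags, 35 were called for hashtag 1, 16 for hashtag 2, 8 for hashtag 3 and 2 as doublets of tags. Beside 236 barcodes of 5 to 20% with under 20000 non-mitochondrial UMIs, they held less Neat1 (10.9 and 1764 CPM) and Apob (78.6 and 1535 CPM), and more of the amino acid and one-carbon enzymes Bhmt (372 and 33.4 CPM), Gnmt (1259 and 151 CPM) and Arg1 (761 and 118 CPM) and of Car3, a carbonic anhydrase (787 and 72.7 CPM). These genes were chosen after their values were seen and the pooled levels have no replicate check.

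The 69 barcodes with at least 50% mitochondrial UMIs had a median of 2937 non-mitochondrial UMIs. Their pooled Malat1 was 36341 CPM, below the 58846 CPM at 40 to 50%, their Neat1 4319.8 CPM and their ribosomal protein sum 94557 CPM. Of these, 5 of 69 (7.25%) held 0 Malat1 UMIs.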
